A study of Homo sapiens with 20 samples.

Results

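The small proline-rich proteins (SPRR) are a family of short precursors of the cornified envelope, and 9 of their genes were followed here: SPRR1A, SPRR1B, SPRR2A, SPRR2B, SPRR2D, SPRR2E, SPRR2F, SPRR3 and SPRR4. They were chosen by symbol from the 57500 genes counted in each of 20 RNA-seq libraries. RNA came from NTERT cells, an immortalized human keratinocyte line that keeps the ability to differentiate. Wild-type (WT) and GCN2KO cells were each left unwounded or wounded, with 5 replicate cultures for every combination. WT stands in the study for cells given a control guide RNA. GCN2KO cells are a pool edited with CRISPR/Cas9 in EIF2AK4, the gene of the eIF2 kinase GCN2, and are not a single clone. In high-density wounding (HDW), a grid of scratches is made in a confluent sheet, which raises the share of cells at a wound edge, and RNA was taken 6 h later. The study's methods give 36 h of differentiation in 2% FBS and 2 mM calcium chloride before wounding, while its results section gives a longer time. The labels give low-calcium EpiLife as the growth medium of all groups. Nothing states that the replicates were grown on separate days, so p-values measure the spread between these cultures.

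SPRR proteins are rich in proline, glutamine and cysteine, and transglutaminases join them to each other and to involucrin and loricrin beneath the membrane of differentiating keratinocytes. They act as cross-bridging proteins that set the mechanical properties of the envelope. In skin they are known as genes of stressed, healing and inflamed epidermis and of stratified epithelia of the mouth and oesophagus.

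All 9 genes lie within the epidermal differentiation complex on chromosome 1 of GRCh38, from SPRR4 (152970648 to 152972574, plus strand) to SPRR2F (153112121 to 153113516, minus strand). SPRR4, SPRR1A, SPRR3 and SPRR1B are on the plus strand, and the 5 SPRR2 genes follow on the minus strand. None of the 9 shares an exonic base with another annotated gene. The SPRR2 genes are close copies, and their coding sequences from GENCODE release 44 are shown because they set how far reads can be told apart. Each has 219 bases, and capitals mark the bases that differ from SPRR2A.
SPRR2A: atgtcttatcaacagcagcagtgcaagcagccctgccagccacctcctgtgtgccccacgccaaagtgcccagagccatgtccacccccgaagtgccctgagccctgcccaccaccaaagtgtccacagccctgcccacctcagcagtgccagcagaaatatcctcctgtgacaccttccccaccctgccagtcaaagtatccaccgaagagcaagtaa
SPRR2B: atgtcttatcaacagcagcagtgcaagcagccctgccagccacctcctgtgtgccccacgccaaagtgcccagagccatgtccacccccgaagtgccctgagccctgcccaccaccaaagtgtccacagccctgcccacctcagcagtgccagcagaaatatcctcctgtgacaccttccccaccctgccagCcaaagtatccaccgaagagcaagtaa
SPRR2D: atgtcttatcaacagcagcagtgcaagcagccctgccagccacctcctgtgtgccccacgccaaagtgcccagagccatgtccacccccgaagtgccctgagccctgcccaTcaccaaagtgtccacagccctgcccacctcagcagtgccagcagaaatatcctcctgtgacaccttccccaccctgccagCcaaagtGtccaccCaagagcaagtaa
SPRR2E: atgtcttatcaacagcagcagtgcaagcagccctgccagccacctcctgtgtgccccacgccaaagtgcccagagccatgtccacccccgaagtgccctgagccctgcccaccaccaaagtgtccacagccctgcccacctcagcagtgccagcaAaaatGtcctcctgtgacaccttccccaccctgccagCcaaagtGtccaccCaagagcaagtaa
SPRR2F: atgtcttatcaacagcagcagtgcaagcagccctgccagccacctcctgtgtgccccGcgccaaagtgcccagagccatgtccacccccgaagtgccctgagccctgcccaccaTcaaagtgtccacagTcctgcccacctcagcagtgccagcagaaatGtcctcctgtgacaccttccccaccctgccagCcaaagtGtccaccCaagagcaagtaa
SPRR2B differed from SPRR2A at 1 base, SPRR2D at 4, SPRR2E at 5 and SPRR2F at 7. Over whole transcripts, which include less similar untranslated parts, 12.3% of the 150-base windows of SPRR2A occurred exactly in SPRR2B or SPRR2E, as did 3.75% of those of SPRR2E. No 150-base window of SPRR1A, SPRR1B, SPRR2D, SPRR2F, SPRR3 or SPRR4 occurred in another gene. At 50 bases SPRR1A and SPRR1B shared 7.24% and 8.25% of their windows with each other, and the shared part was 34.4% for SPRR2A, 32.4% for SPRR2B, 19.4% for SPRR2D, 23.3% for SPRR2E and 18.4% for SPRR2F. Reads are 150 bases long and were counted where they mapped uniquely, so reads from the shared parts can be lost or moved between SPRR2A, SPRR2B and SPRR2E, and their separate values are uncertain to that extent.

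The mRNA of GCN2 (EIF2AK4) averaged 4355 ± 149 normalized read counts in unwounded WT cultures against 894 ± 61.8 in unwounded GCN2KO cultures (SD, n = 5 each). After HDW the means were 4194 ± 129 and 874 ± 66.5 (SD, n = 5 each). Normalized read counts are counts divided by the TMM-scaled size of the library relative to the mean of all 20. Library totals ran from 14083504 to 34611570 counts. Summed keratinocyte markers, among them KRT5 and KRT14, lay between 476688 and 765861 normalized read counts in every library, with medians of 732994 in WT and 540336 in GCN2KO unwounded cultures. Of markers of other cell types, 3 endothelial genes summed to between 1.53 and 18.2, 4 melanocyte genes to between 56.5 and 100.3 with TYR at 0 in all libraries, and 6 fibroblast genes to between 667 and 1043. The 4 immune genes, with PTPRC at 0 in 3 of the 4 groups, summed to between 1577 and 1815 in WT and 587 and 1208 in GCN2KO unwounded cultures, and CD14 was lower in GCN2KO at a log2 fold change of -1.10. Of the 7 keratinocyte markers, KRT15 (-1.88) and COL17A1 (-1.36) were lower in unwounded GCN2KO cells by at least 1 on the log2 scale. Both also had an adjusted p no higher than 0.05 (edgeR). By the fold and the adjusted p together, 8.22% of all genes tested were lower. No keratinocyte marker was higher by as much as 1. Below that size KRT14 had -0.85, ITGA6 -0.73, ITGB4 -0.95 and TP63 -0.52, and KRT5 was higher at 0.50. The part of these markers in the results for the SPRR genes was not tested. In bulk RNA, more cells that express a gene and more RNA per expressing cell cannot be told apart.

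GCN2KO cells held far more SPRR mRNA than WT cells without any wound. Of the 9 members, 7 passed the filter on low counts, and 6 of these 7 rose, against a background of 8.21% of all genes higher and 8.22% lower. SPRR2E and SPRR2F, at 9 to 19 and 7 to 13 counts in each WT unwounded library, passed through their GCN2KO libraries. The number of members that rose is therefore in part set by the filter. To be called differentially expressed (DE), a gene needed a log2 value of 1 or more in size and an adjusted p no higher than 0.05. The median log2 fold change of the 7 was 4.41, beside 0.00 for all genes tested. SPRR2E, SPRR2A and SPRR2D rose the most, SPRR3 followed, and SPRR1B was the tested member below the fold threshold. The values by library are plotted for each member.

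**Figure D1:**
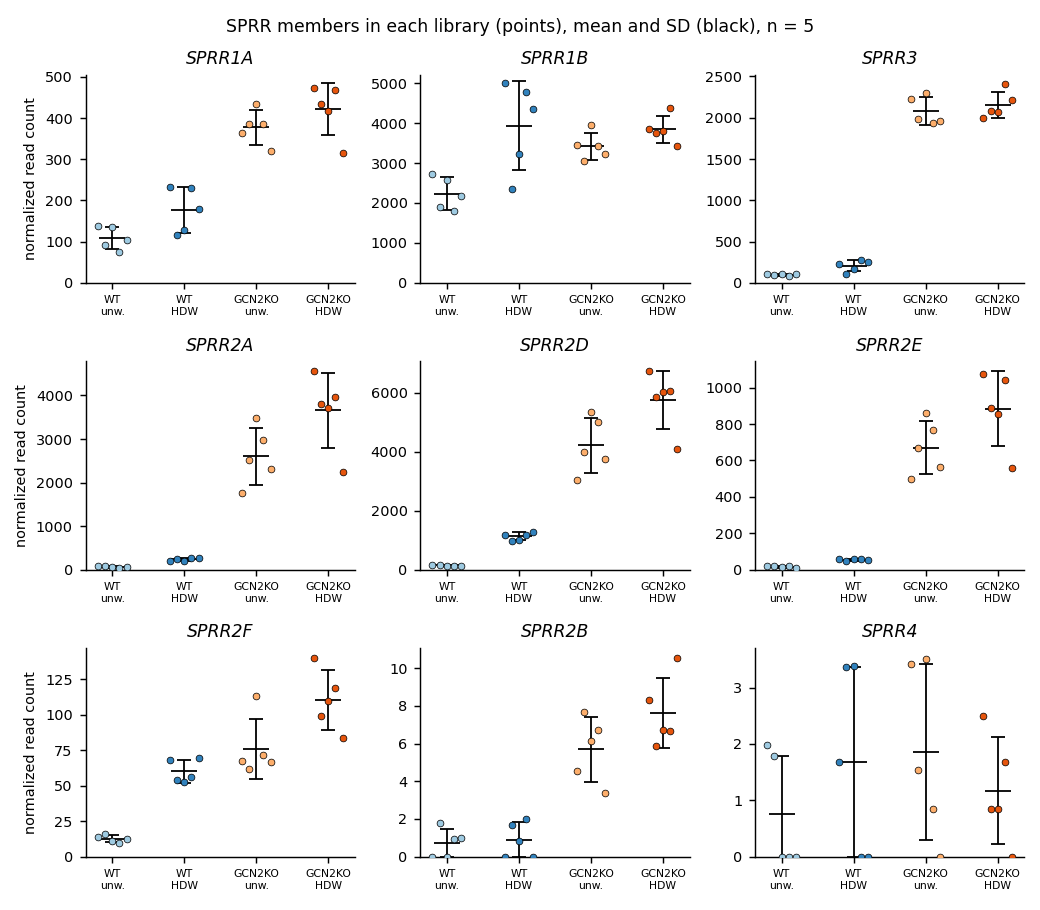
Normalized read counts (vertical axis, each panel with its own scale from 0) of the 9 members in the 4 groups, with each library as a point and the mean and SD in black. SPRR2A, SPRR2D, SPRR2E and SPRR3 are high in both GCN2KO groups, while SPRR1B ranges from 1805 in a WT unwounded library to 4993 in a WT HDW library.

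SPRR2D had 165, 162, 130.4, 117 and 139 normalized read counts in the WT unwounded cultures and 3057, 3981, 5332, 5008 and 3755 in the GCN2KO unwounded cultures. The 2 groups did not overlap, and the log2 fold change was 4.92 (edgeR, SE 0.16, adjusted p = 1.21e-12). SPRR2A had 83.5, 73.2, 56.8, 33.4 and 62.7 in WT and 1759, 2522, 3472, 2968 and 2306 in GCN2KO unwounded cells. Every GCN2KO value of SPRR2A was thus above every WT value, and the log2 fold change was 5.47 (edgeR, SE 0.21, adjusted p = 9.18e-12). SPRR2E had 21.9, 17.8, 12.1, 17.7 and 8.67 in WT and 497, 667, 863, 765 and 563 in GCN2KO unwounded cells, again without overlap. Its log2 fold change was 5.50 (edgeR, SE 0.21, adjusted p = 9.18e-12). Because SPRR2A and SPRR2E share sequence, the 5 SPRR2 genes were also summed. The sum was 234 ± 43.8 (SD, n = 5) in WT and 7584 ± 1741 (SD, n = 5) in GCN2KO unwounded cells, a ratio of 32.5.

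SPRR2F rose less than the other expressed SPRR2 genes. It had 13.9, 16.1, 10.9, 9.29 and 12.5 normalized read counts in WT and 67.1, 61.3, 113, 71.4 and 66.7 in GCN2KO unwounded cells. The groups did not overlap, and the log2 fold change was 2.66 (edgeR, SE 0.23, adjusted p = 5.61e-08).

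SPRR3, which carries many copies of its repeat and is abundant in the oesophagus, had 109, 96.4, 107, 79.9 and 101 normalized read counts in WT unwounded cells. In GCN2KO unwounded cells it had 2232, 1985, 2296, 1938 and 1957. The GCN2KO cultures were close to each other and far above WT, with a log2 fold change of 4.41 (edgeR, SE 0.096, adjusted p = 3.68e-14).

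The SPRR1 genes, which are classical markers of squamous differentiation, differed from each other. SPRR1A had 137, 92.8, 136, 74.3 and 103 normalized read counts in WT and 364, 385, 435, 385 and 319 in GCN2KO unwounded cells, without overlap. Its log2 fold change was 1.82 (edgeR, SE 0.14, adjusted p = 1.68e-08). SPRR1B had 2715, 1889.7, 2582, 1805 and 2181 in WT and 3459.5, 3058, 3955, 3418 and 3225 in GCN2KO unwounded cells. These groups did not overlap either, but the log2 fold change was 0.62 (edgeR, SE 0.11, adjusted p = 9.59e-05), below the fold threshold.

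The 2 remaining members were near the limit of detection. SPRR2B had 3 counts over the 5 WT unwounded libraries and 28 over the 5 GCN2KO unwounded libraries, a ratio of 7.41 with an exact 95% interval of 2.29 to 38.1 that covers counting error only. Its mean log2 value differed by 2.53, with a two-sided exact permutation p of 0.00794, the smallest that 5 against 5 allows, and 0.0159 adjusted over the 4 comparisons. As SPRR2B differs from SPRR2A at 1 coding base, whether these counts come from SPRR2B was not tested. SPRR4 had 2 counts in WT and 9 in GCN2KO unwounded cells, and its exact permutation p was 0.302.

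Wounding raised the same family in WT cells. After HDW, 5 of the 7 tested members rose in WT, against 2.62% of all genes higher and 1.55% lower, and none fell. Their median log2 fold change was 1.87. Of the tested members, SPRR2E and SPRR2F passed the filter on low counts through their HDW libraries. The number that rose is in part set by the filter here too. This comparison uses the same WT unwounded cultures as the comparison of unwounded genotypes, so the folds of both depend on the same baseline.

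SPRR2D had the largest response, with 1190.3, 977, 1011, 1191 and 1289 normalized read counts in the WT HDW cultures. All lay above the highest WT unwounded value of 165, and the log2 fold change was 3.02 (edgeR, SE 0.10, adjusted p = 1.80e-11). SPRR2F rose to 68.3, 53.8, 52.3, 55.8 and 69.2, a log2 fold change of 2.30 (edgeR, SE 0.18, adjusted p = 7.25e-08). SPRR2A reached 195, 253, 210.1, 269 and 279 and SPRR2E 56.5, 47.1, 57.4, 58.8 and 52.8. Neither overlapped its unwounded group, and the log2 fold changes were 2.04 (edgeR, SE 0.18, adjusted p = 1.67e-07) and 1.87 (edgeR, SE 0.20, adjusted p = 1.34e-06). SPRR3 had 228, 110.2, 172, 281 and 248, and its lowest HDW value was just above its highest unwounded value of 109. Its log2 fold change of 1.08 (edgeR, SE 0.21, adjusted p = 5.15e-04) was close to the threshold and was 0.99 without WT unwounded replicate 4 and 0.95 without WT HDW replicate 4.

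For the SPRR1 genes the WT groups overlapped. SPRR1B had 4993, 2361, 3217, 4771 and 4350.4 in WT HDW cells, with a log2 fold change of 0.82 (edgeR, SE 0.17, adjusted p = 9.92e-04). SPRR1A had 233, 115, 127, 230.3 and 179, with 0.72 (edgeR, SE 0.22, adjusted p = 0.0111). Both passed the adjusted p and not the fold. WT HDW replicate 2 was the lowest of its group for SPRR1A, SPRR1B and SPRR3, at -0.56, -0.68 and -0.84 from the group mean on the log2 scale. It was also the lowest for SPRR2D and SPRR2E, at -0.20 each, and was at 0.08 for SPRR2A.

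In GCN2KO cells HDW moved the family little on the log2 scale. No tested member was a DE gene, against 0.475% of all genes higher and 0.196% lower. By the adjusted p alone 2 of 7 were higher, SPRR2D by 0.45 (edgeR, SE 0.15, adjusted p = 0.0385) and SPRR2F by 0.53 (edgeR, SE 0.18, adjusted p = 0.0454), where 11.9% of all genes were. SPRR2D had 6725, 5857, 6015, 6065 and 4105 normalized read counts in the GCN2KO HDW cultures, which overlapped the unwounded ones. SPRR2A had 4556, 3795, 3716, 3967 and 2243 there, with a log2 fold change of 0.50 (edgeR, SE 0.18, adjusted p = 0.0596). SPRR3 had 1995, 2086, 2069, 2407 and 2218, with 0.06 (edgeR, SE 0.073, adjusted p = 0.577). GCN2KO HDW replicate 5 was the lowest of its group for SPRR2A, SPRR2D and SPRR2E, at -0.67, -0.47 and -0.63 from the group mean on the log2 scale. It was also the lowest for SPRR1A (-0.40), SPRR2F (-0.38) and SPRR1B (-0.16), and was at 0.04 for SPRR3.

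HDW changed the family less in GCN2KO than in WT cells. In the interaction test the response to HDW was lower in GCN2KO than in WT cells for 5 of 7 tested members. Of all genes, 2.15% had a lower and 1.16% a higher response by the same thresholds. The difference was -2.57 (edgeR, SE 0.21, adjusted p = 6.09e-09) for SPRR2D, -1.79 (edgeR, SE 0.29, adjusted p = 9.50e-05) for SPRR2F and -1.55 (edgeR, SE 0.30, adjusted p = 6.31e-04) for SPRR2A. It was -1.48 (edgeR, SE 0.36, adjusted p = 0.00385) for SPRR2E and -1.03 (edgeR, SE 0.21, adjusted p = 0.00108) for SPRR3, the latter at the fold threshold. SPRR1B had -0.65 (edgeR, SE 0.21, adjusted p = 0.0234) and SPRR1A -0.57 (edgeR, SE 0.25, adjusted p = 0.103). The fold changes of all 4 comparisons are plotted side by side.

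**Figure D2:**
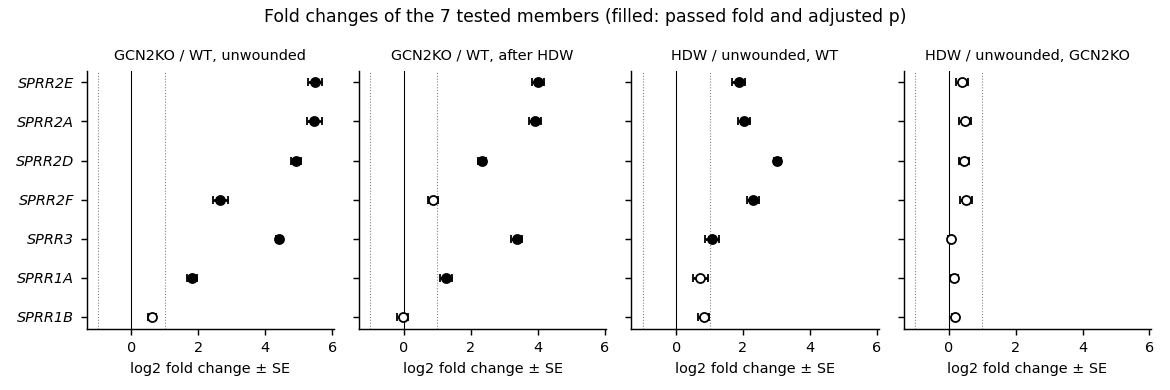
Log2 fold change with its SE (horizontal axis) of the 7 tested members in the 4 comparisons, filled where the member was a DE gene and with dotted lines at the fold threshold. SPRR2A and SPRR2E lie above 5 in unwounded GCN2KO against WT cells, and no member is filled for HDW in GCN2KO cells.

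After HDW, 5 of the 7 tested members were still higher in GCN2KO than in WT cells, against 7.10% of all genes higher and 7.83% lower. SPRR2E differed by 4.01 (edgeR, SE 0.18, adjusted p = 3.87e-10), SPRR2A by 3.92 (edgeR, SE 0.17, adjusted p = 4.07e-10), SPRR3 by 3.38 (edgeR, SE 0.16, adjusted p = 9.13e-10), SPRR2D by 2.35 (edgeR, SE 0.12, adjusted p = 1.16e-09) and SPRR1A by 1.25 (edgeR, SE 0.18, adjusted p = 2.03e-05). SPRR2F, with 140.1, 98.7, 109.9, 119 and 83.3 normalized read counts in GCN2KO HDW cells, differed by 0.87 (edgeR, SE 0.15, adjusted p = 9.28e-05). SPRR1B overlapped between the genotypes after HDW, with a log2 fold change of -0.03 (edgeR, SE 0.16, adjusted p = 0.852). SPRR2B had 5 counts in WT and 40 in GCN2KO HDW libraries, a ratio of 8.75 with an exact 95% interval of 3.45 to 28.4. Set side by side, the lowest SPRR2D value in unwounded GCN2KO cells, 3057, lay above the highest in wounded WT cells, 1289. SPRR2F overlapped there, with 61.3 to 113 in unwounded GCN2KO and 52.3 to 69.2 in wounded WT cells.

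The make-up of the family changed with genotype. Per kilobase of exon, SPRR1B had the highest mean in every group. It had 3609.9 ± 655 (SD, n = 5) normalized read counts per kilobase in WT unwounded and 5530.2 ± 546 (SD, n = 5) in GCN2KO unwounded cells. The order and the shares depend on the merged exon lengths, 1052 bases for SPRR2D, 1441 for SPRR3 and 619 for SPRR1B. Not divided by length, mean SPRR2D was above SPRR1B in GCN2KO cells, at 4226 and 3423 unwounded and 5753 and 3846 after HDW. In WT unwounded cells SPRR1A, SPRR2D, SPRR2A and SPRR3 followed, each overlapping the next in order, at 164, 136, 91.4 and 68.6 per kilobase. In GCN2KO unwounded cells SPRR2D (4017) and SPRR2A (3848) came close behind SPRR1B and overlapped it or each other, and SPRR3 (1445) stood apart below them. In GCN2KO HDW cells the means of SPRR1B, SPRR2D and SPRR2A were 6214, 5469 and 5399, with overlap, and in replicate 1 both SPRR2 genes, at 6392 and 6729, were above SPRR1B at 6242. The SPRR1 genes made up 91.7% ± 1.46 (SD, n = 5) of the summed level in WT unwounded and 78.5% ± 3.98 in WT HDW cells. In GCN2KO cells they made up 37.4% ± 3.90 unwounded and 33.6% ± 3.08 after HDW. The SPRR2 genes made up 6.59% ± 1.34, 19.8% ± 4.08, 53.6% ± 5.26 and 59.0% ± 4.51 in the same order. The summed level per kilobase was 4112 ± 727 without and 8373 ± 2046 with HDW in WT cells. In GCN2KO cells it was 16447 ± 2514 without and 20593 ± 2967 with HDW (SD, n = 5 each).

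**Figure D3:**
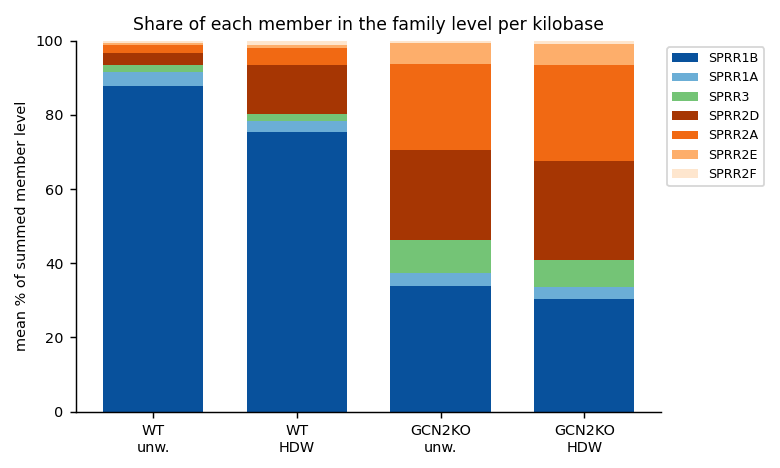
Mean share of each member (stacked bars, percent, n = 5 libraries a group) in the summed level per kilobase of the 9 members; SPRR2B and SPRR4 are too low to be drawn. SPRR1B takes 87.7% in WT unwounded and 34.0% in GCN2KO unwounded cells.

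Within the SPRR2 genes the proportions also differed. SPRR2F held 6.93% ± 0.52 (SD, n = 5) of the SPRR2 level in WT unwounded and 1.28% ± 0.24 in GCN2KO unwounded cells. SPRR2D rose from 51.1% ± 3.08 in WT unwounded to 67.3% ± 2.41 in WT HDW cells and was 45.3% ± 1.06 in GCN2KO unwounded cells.

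The genes whose pattern over the 20 libraries was most like that of a member were found by the root mean square difference of centred log2 values among 12296 genes. SPRR2D was most like APOBEC3A (0.20), a cytidine deaminase, and then ATP12A (0.34) and KRT24 (0.56). SPRR2A and SPRR2E were each most like CRCT1, a neighbour in the complex (0.51 and 0.52), and they were closer to each other (0.34). SPRR1A was most like CPA4 (0.16), then PI3 (0.25) and ARHGAP29 (0.28), and SPRR1B like CTSV (0.14), SCEL (0.19) and LMO7 (0.20). SPRR2F was most like PTHLH (0.34), and SPRR3 like FUT6 (0.58). These are descriptions over libraries that share the 4 groups.

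Promoter sequences from RefSeq (GRCh38.p14) were given for 7 of the 9 members, all but SPRR2D and SPRR2E. They are shown for 4 members that differ in response, over the 250 bases before the start, with matches on either strand in capitals. The motif searched for AP-1 was TGANTCA. That for ETS factors was CAGGAA. That of the TATA box was TATAAA.
SPRR1B, chr1:153030953-153031202, plus strand: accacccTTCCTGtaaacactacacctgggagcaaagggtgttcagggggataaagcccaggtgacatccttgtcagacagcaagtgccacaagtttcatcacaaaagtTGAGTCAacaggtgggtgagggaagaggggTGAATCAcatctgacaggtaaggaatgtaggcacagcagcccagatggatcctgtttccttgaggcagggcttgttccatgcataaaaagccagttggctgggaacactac
SPRR3, chr1:153001499-153001748, plus strand: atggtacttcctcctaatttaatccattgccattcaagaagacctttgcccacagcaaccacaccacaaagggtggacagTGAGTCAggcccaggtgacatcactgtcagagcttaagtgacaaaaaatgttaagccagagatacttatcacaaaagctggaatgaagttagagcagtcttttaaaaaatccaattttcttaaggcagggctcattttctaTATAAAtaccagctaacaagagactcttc
SPRR2A, chr1:153057513-153057762, minus strand: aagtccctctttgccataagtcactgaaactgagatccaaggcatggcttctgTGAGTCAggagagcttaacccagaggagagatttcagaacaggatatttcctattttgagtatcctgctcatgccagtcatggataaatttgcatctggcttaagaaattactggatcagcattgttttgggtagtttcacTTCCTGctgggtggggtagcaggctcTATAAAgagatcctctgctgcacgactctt
SPRR2B, chr1:153071612-153071861, minus strand: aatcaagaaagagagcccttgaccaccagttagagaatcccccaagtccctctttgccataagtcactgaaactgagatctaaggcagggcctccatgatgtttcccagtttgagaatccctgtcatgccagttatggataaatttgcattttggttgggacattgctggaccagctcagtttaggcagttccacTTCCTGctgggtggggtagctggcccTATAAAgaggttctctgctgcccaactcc
The AP-1 letters were found in 5 of the 7 promoters, SPRR1A, SPRR1B, SPRR2A, SPRR2F and SPRR3, beside 6.60% of 27305 promoters of the same length. They were not in the windows of SPRR2B and SPRR4, and a link of these letters to expression was not tested. The SPRR2A, SPRR2B and SPRR2F windows share runs of letters, so the 7 promoters are not independent of each other. CAGGAA was in 3 of 7 (24.1% of all) and TATAAA in 6 of 7 (11.1% of all). CACCC (KLF) was in 6 of 7 (53.7%), TGATGNAA (CCAAT-ATF) in 2 of 7 (3.19%) and TGACNNNGC (antioxidant) in none of 7 (11.0%). A match is a run of letters and not a measured site.

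Other genes of the cornified envelope moved unevenly in GCN2KO cells. Of the precursors outside the family, 8 of 12 were tested, and CRCT1 (5.47), CNFN (2.56), PI3 (elafin, 1.96) and IVL (involucrin, 1.83) were higher in unwounded GCN2KO cells on the log2 scale. EVPL (envoplakin) had -0.56 and CSTA (cystatin A) -0.15. Among S100-fused type proteins TCHH was higher by 1.70 and TCHHL1 by 1.55, CRNN had 1 count over the WT and 113 over the GCN2KO unwounded libraries, and FLG (filaggrin) had -0.93. Among late cornified envelope genes LCE3D was higher by 3.89 and LCE1E by 1.94. CRCT1, TCHH, TCHHL1, CRNN, LCE3D and LCE1E failed the filter on low counts where WT cells alone were compared and so passed it here through their GCN2KO libraries, which leaves the number of higher genes in their lists no measure of those lists. Among 3 tested transglutaminases TGM5 was lower by a log2 fold change of -4.74, and TGM1, which anchors the envelope in epidermis, had -0.24. TGM5 had 0 to 5 counts in each GCN2KO unwounded library. It failed the filter where GCN2KO cells alone were compared and so passed it here through its WT libraries. Of 7 tested suprabasal genes DSC1 rose by 1.10, and CALML5 and KRT1 fell by 1.13 and 1.06. KRT1, at 8 to 15 counts in each GCN2KO unwounded library, passed the filter through its WT libraries. DSC1, at 5 to 24 counts in each WT unwounded library, passed through its GCN2KO libraries. After HDW in WT cells, 1 of 7 tested precursors rose, PI3 by 1.04, and TGM2 rose by 2.18, whereas FLG fell by 1.01 and LCE1B by 1.38. LCE1B had 4 to 11 counts in each WT HDW library and passed the filter there through its unwounded libraries. After HDW the same lists in GCN2KO against WT cells held CRCT1 at 3.52, CNFN at 2.94 and IVL at 1.96, TCHH at 2.39 and TCHHL1 at 2.03, LCE3D at 3.30, LCE1E at 2.99 and LCE1B at 1.24, and DSC1 at 1.12 as the genes that were higher, beside CRNN with 2 counts in WT and 192 in GCN2KO libraries. TGM5 (-4.75), TGM2 (-1.80) and CALML5 (-1.29) were lower. After HDW too, CRCT1, TCHH, TCHHL1, CRNN, LCE3D and LCE1E passed the filter through their GCN2KO libraries, as did LCE1B. TGM5 and CALML5 passed through their WT libraries. In the interaction test TGM2 (-1.54) and PI3 (-1.01) were the genes called. For HDW in GCN2KO cells no gene of these 5 lists was a DE gene.

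Among transcription factors known in keratinocyte differentiation or stress, POU2F3 rose by 1.40 and PRDM1 by 1.07 on the log2 scale in unwounded GCN2KO cells, and FOS was lower at -1.05. POU2F3 counts were low, at 2 to 6 in each WT unwounded and 10 to 18 in each GCN2KO unwounded library. It passed the filter on low counts in this comparison through its GCN2KO libraries. HDW raised FOSL1, an AP-1 subunit, by 1.58 in WT and by 1.08 in GCN2KO cells. In WT cells HDW also raised POU2F3 by 1.39, to 8 to 27 counts in each library. After HDW, GRHL1 in GCN2KO cells exceeded its WT level by 1.24.

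Along the epidermal differentiation complex, from S100A10 to S100A1, the members were compared with their 53 protein-coding neighbours, a region chosen after these values were seen. In unwounded GCN2KO against WT cells 29 of these neighbours were tested, and 9 were higher and 3 lower. Among the higher ones, CRNN, CRCT1, LCE3D, LCE1E, TCHH, TCHHL1 and SPRR2G passed the filter through their GCN2KO libraries alone, with WT unwounded means of 0.19 to 9.39 normalized read counts, so the number of higher neighbours is not a measure of the region. After HDW 11 of 28 tested neighbours were higher in GCN2KO and 2 lower, with the same limit. SPRR2G, the next protein-coding gene after SPRR2F, rose by 3.90, from 1.79 to 27.9 mean normalized read counts. SPRR5, on the other side of SPRR4, was lower at -1.11, from 13.5 to 6.21 mean normalized read counts. It failed the filter where GCN2KO cells alone were compared and so passed it here through its WT libraries, at 7 to 13 counts each. PGLYRP3 and PGLYRP4, beyond loricrin, were lower at -2.59 and -1.69, and S100A6 was higher at 1.70. SPRR2C, annotated as a pseudogene, had means of 0.24 in WT and 1.37 in GCN2KO unwounded cells. SPRR5 shares 29.5% of its exonic bases with LINC01527, so its value is uncertain where strand was not used in counting. In WT cells after HDW 3 of the 22 tested neighbours were lower, FLG, LCE1B and S100A7A (-2.05), and none was higher. Of all genes, 1.55% were lower and 2.62% higher. LCE1B and S100A7A, with WT HDW means of 6.39 and 5.51 normalized read counts, passed the filter through their unwounded libraries. The number of lower neighbours is therefore no measure of the region. In GCN2KO cells after HDW none of the 28 tested neighbours was a DE gene.

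**Figure D4:**
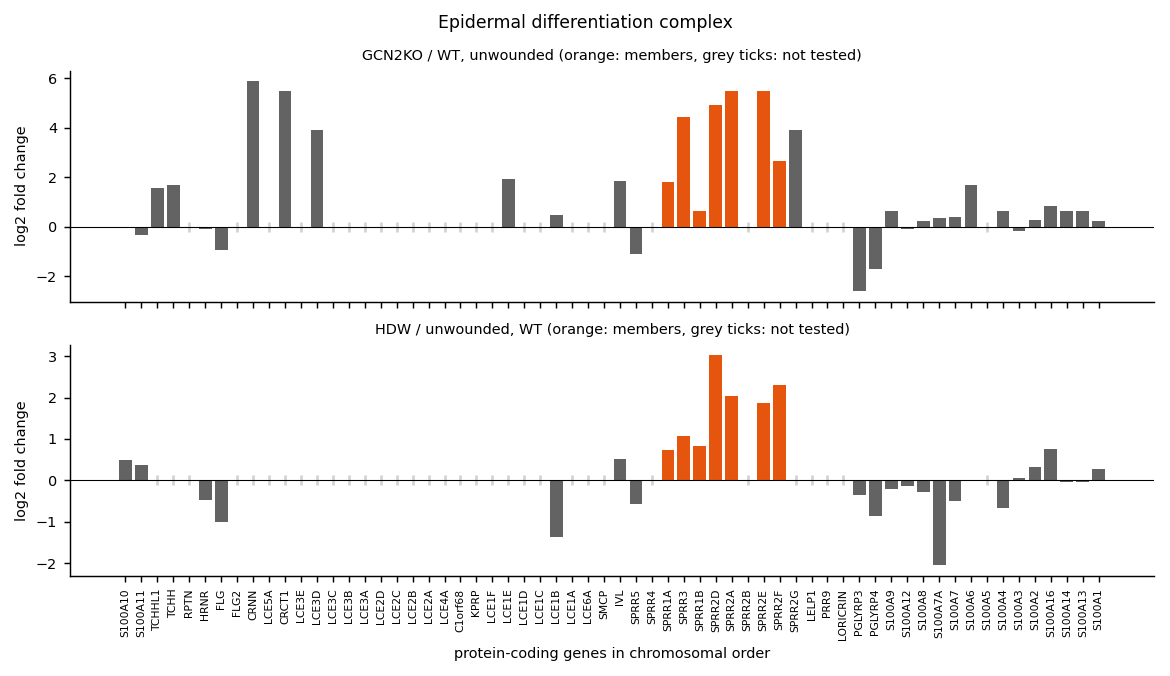
Log2 fold change (bars) of the protein-coding genes of the epidermal differentiation complex in chromosomal order, for unwounded GCN2KO against WT cells and for HDW in WT cells, with members in orange and genes that were not tested as grey ticks. The bars from SPRR1A to SPRR2F rise above 0 in both panels, while PGLYRP3 is at -2.59 in the upper panel.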

How the data were processed

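Total RNA of 20 NTERT cultures was sequenced with 150-base paired reads. The authors trimmed reads with Trimmomatic, aligned them to GRCh38 with STAR, assigned uniquely mapped reads to exons with featureCounts and deposited raw counts per gene and library. The annotation release, strandedness and treatment of overlapping genes are not given in the sources used here. Groups were taken from the sample labels. Of 57500 genes, 56410 matched GENCODE release 44, which gave symbols, positions and lengths.

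Counts were tested by quasi-likelihood (glmQLFit, then glmQLFTest) in edgeR 4.0.16 under R 4.3.3 (TMM, filterByExpr with a minimum count of 10 and total of 15), with the 10 libraries of each comparison, or all 20 for the interaction, and Benjamini-Hochberg adjustment over all genes tested. The SE is the size of the log2 fold change divided by the square root of F. Members that failed the filter were tested by two-sided exact permutation on log2(normalized count + 0.5). Totals of 14083504 to 34611570 counts set the precision, and intervals cover counting error only. The members and lists were chosen with earlier results of these data known. Named genes are the members, EIF2AK4, SPRR2C, SPRR2G, SPRR5, the 3 genes most like each member with a mean of at least 50 (of which some are given), and, per list, the called genes with the 2 largest and 2 smallest fold changes. Some results for the transcription factors are not reported here. Alternatives were DESeq2 1.42.0, its size factors, library size alone, other filters, all 20 libraries in one fit, a replicate block, thinned counts, adjusted p alone, a pseudocount of 1 and each library left out in turn. On data simulated for unwounded GCN2KO against WT cells over 15187 genes, 64 of 64 genes changed by a log2 of 2 were called and 65 of 65 at 4. At 1, where the fold threshold itself lies, 30 of 67 were called and 63 passed the adjusted p. Of 14991 unchanged genes 0 were called and 5 passed the adjusted p. The simulation changed far fewer genes than were called in the data, so it does not test normalization at that scale. No libraries agreed within sampling noise (lowest chi-square per degree of freedom within a group 2.41).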

Additional observations from a re-analysis of the deposited data

Results flagged for a closer look

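SPRR2F in GCN2KO unwounded cells held a library far from the others, replicate 3 with 113 normalized read counts, where the other 4 lay between 61.3 and 71.4. Of 36 groups of 5 examined, chance would mark about 1 in 20, and this was the only one marked. For 5 members the interaction test separated the responses of WT and GCN2KO cells to HDW, with GCN2KO minus WT differences of -2.57 for SPRR2D, -1.79 for SPRR2F, -1.55 for SPRR2A, -1.48 for SPRR2E and -1.03 for SPRR3 on the log2 scale.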

How the results depend on the processing

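Of the values of single members under the alternatives, 684 kept their direction and side of the threshold, 10 fell below it and 4 changed sign. SPRR3 after HDW in WT cells was 0.97 with thinned counts, and its interaction was -0.97 with library size alone and -0.93 with thinned counts. Its interaction was under 1 in size, at the least -0.91, without WT unwounded replicate 4, WT HDW replicate 1, 4 or 5, or GCN2KO unwounded replicate 3. SPRR1B in GCN2KO against WT cells after HDW, not a call, was 0.012 with the replicate block and -0.18 to 0.063 over libraries left out in turn. With each library left out, 4 to 5 members were called for HDW in WT and for the interaction. DESeq2, with its own filter on low counts, called 7 members without a wound and 6 after HDW in GCN2KO against WT cells. A minimum mean of 50 counts left 3 members called for HDW in WT. The adjusted p alone gave 2 for HDW in GCN2KO cells.

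Same-numbered replicates did not pair, as their deviations correlated between -0.615 and 0.299 and 6 of 20 pairs were over 0.1. With the replicate block the counts of members called were the same in all 5 tests, and 1259 genes were higher in unwounded GCN2KO cells. SPRR2F for HDW in GCN2KO cells had an adjusted p of 0.0539 with the block.

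Numbers of DE genes over all genes moved most. For unwounded GCN2KO against WT cells the adjusted p alone gave 5130 higher and 5083 lower, no filter 2132 higher, and a mean of 50 gave 796 higher and 834 lower. After HDW these were 5690 and 5677, 1950 higher, and 563 and 765, and DESeq2 gave 1737 higher. For HDW in WT cells they were 4013 and 3865, 397 lower, and 250 and 121. For HDW in GCN2KO cells they were 1880 and 1706, 114 and 85, and 37 and 3, with 18 lower by DESeq2, 54 lower with all 20 libraries, 11 lower with thinned counts and 20 to 59 lower with a library left out. For the interaction the adjusted p alone gave 1851 and 2075 and a mean of 50 gave 73 and 207. The cause was not tested.

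In place of the summed SPRR2 genes, whose log2 differences were 5.02, 2.81 and 2.67, single genes gave for unwounded cells 5.40 (SPRR2A), 5.42 (SPRR2E) and 2.60 (SPRR2F). After HDW they gave 3.92 (SPRR2A), 2.35 (SPRR2D), 4.02 (SPRR2E) and 0.88 (SPRR2F), and for HDW in WT cells 1.96 (SPRR2A), 2.99 (SPRR2D), 1.80 (SPRR2E) and 2.26 (SPRR2F). Depth limits SPRR2B and SPRR4, which had at most 11 and 4 counts in any library.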
